A study of Mus musculus with 45 samples.

Results

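Of 10 listed genes of T cells and cytotoxic lymphocytes, 9 were measured in 45 mouse mammary tumours, out of 18820 genes with a probe set of their own. The genes were chosen by name, and each was read from the probe set with the highest mean among those carrying its symbol alone. Cd3e, Cd3d and Cd3g encode chains of the T cell receptor complex, Cd4 and Cd8a its coreceptors, Gzma, Gzmb and Prf1 the contents of cytotoxic granules, and Ifng the cytokine interferon-gamma. Foxp3, the transcription factor of regulatory T cells, had no probe set of its own. Its 2 probe sets are shared with Ccdc22, and 1 of them also with Flicr, so no value is given to Foxp3 here.

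The tumours grew from pieces of BALB/c mammary tissue lacking Trp53, a tumour suppressor gene, that were placed in inguinal fat pads. The hosts were wild-type BALB/c females 10 weeks old that had lost their own mammary epithelium at 3 weeks. Silicon ions, heavy charged particles that ionize densely along their track, or a sham procedure were given to the hosts 3 days before transplantation, so that every graft was unirradiated. Transplants were watched for 600 days, and tumours were removed at 1 cm3. Sham hosts gave 18 tumours, hosts given 10 cGy gave 9, hosts given 30 cGy gave 10 and hosts given 80 cGy gave 8, which makes 27 tumours from Si-irradiated hosts. The study asks whether an irradiated host goes with a different tumour. Whole-tumour RNA was measured, so transcripts of leukocytes and of tumour cells are read together, and fewer cells of a type cannot be told apart from less RNA per cell.

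T cells recognise peptide bound to MHC molecules through a receptor whose CD3 chains pass the signal into the cell. CD8 marks most killer T cells, and CD4 marks helper and regulatory T cells, although in mice some dendritic cells carry CD4 too. Killer T cells and natural killer (NK) cells release perforin, which opens membranes, and granzymes, proteases that enter through them and start cell death. Interferon-gamma, made by the same cells, raises antigen presentation and the chemokines CXCL9 and CXCL10, which attract T cells.

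Reference sequence upstream of Cd3e, Cd3g, Gzmb and Prf1 is shown, because these genes form the 2 most tightly linked pairs below. The stretches are RefSeq sequences of build GRCm38.p6, from a mouse strain other than BALB/c, read 5′ to 3′ on the strand of the gene and ending before the annotated gene. Capitals mark the core letters bound by ETS factors (AGGAAG) and by RUNX factors (TGTGGT), on either strand. Cd3e lies at chr9:44998735-45009663 and Cd3g at chr9:44969572-44980431, with Cd3d between them at chr9:44981769-44987052. Gzmb lies at chr14:56258836-56262334 and Prf1 at chr10:61297751-61304684. The stretches cover chr9:45009664-45009861 (minus strand), chr9:44980432-44980681 (minus), chr14:56262335-56262584 (minus) and chr10:61297586-61297750 (plus).
Cd3e: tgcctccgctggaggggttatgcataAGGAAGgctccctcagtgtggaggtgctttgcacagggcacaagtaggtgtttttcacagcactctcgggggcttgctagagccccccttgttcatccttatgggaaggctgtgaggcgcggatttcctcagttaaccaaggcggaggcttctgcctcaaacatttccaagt
Cd3g: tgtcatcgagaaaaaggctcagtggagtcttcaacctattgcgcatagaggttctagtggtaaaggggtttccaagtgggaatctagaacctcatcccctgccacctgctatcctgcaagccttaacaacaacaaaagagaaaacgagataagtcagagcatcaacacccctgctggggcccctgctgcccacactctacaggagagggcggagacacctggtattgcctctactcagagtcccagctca
Gzmb: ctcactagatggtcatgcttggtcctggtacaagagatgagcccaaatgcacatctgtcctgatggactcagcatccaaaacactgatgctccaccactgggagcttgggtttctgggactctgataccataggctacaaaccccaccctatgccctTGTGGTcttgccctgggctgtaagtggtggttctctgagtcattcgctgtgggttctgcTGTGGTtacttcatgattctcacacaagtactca
Prf1: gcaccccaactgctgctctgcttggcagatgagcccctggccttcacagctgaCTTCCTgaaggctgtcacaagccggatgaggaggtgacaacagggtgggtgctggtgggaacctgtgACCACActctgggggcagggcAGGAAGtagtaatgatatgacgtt

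In the full window of 250 bases before the start that the promoter table gives, Cd3e held 2 ETS matches and no RUNX match, Cd3g neither, Gzmb 2 RUNX matches and Prf1 2 ETS matches and 1 RUNX match. Over all 32851 mouse promoter windows of that length, 29.5% held an ETS match and 14.0% a RUNX match. Of the listed genes, 9 had a promoter entry. For Cd3e and Prf1 the end of the window lies inside the annotated gene, and 1 of the 2 Cd3e matches is there, so the stretch printed for Cd3e shows the other. A match describes letters and not a bound site.

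All values are log2 expression as deposited, and a probe set's level is compared between tumours, never with another gene's. A value counted as above the middle of the table where it exceeded 5.67, the median of all values. Cd3e lay above it in 43 tumours, Cd3g in 35, Cd4 in 26, Gzmb in 21, Cd8a in 15 and Gzma in 12. These 6 genes passed the filter for testing, which asked for at least 8 such tumours. Prf1 passed the median in 4 tumours, Ifng in 2 and Cd3d in 0, so these 3 genes are described by their values and by a fit without the filter.

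A few tumours stand apart and bear on what follows. Sham replicate 16 and 10 cGy replicate 1 were the most alike of all pairs, with a correlation of 0.978 over the genes tested against a median of 0.857 between tumours. Their endothelial markers were far above the rest. Pecam1, an adhesion molecule of vessel walls, read 12.16 and 12.19 in them and at most 10.17 elsewhere, and Kdr, a receptor for vascular growth factor, read 11.23 and 11.18 against at most 8.71. Their epithelial markers, picked for naming after their values were seen, were low. Krt18, a luminal keratin, read 7.29 and 6.38 where the other tumours had 8.78 to 12.9. Mammary epithelial markers were otherwise high in most tumours, Krt8 having a median of 12.31. Results that rest on these tumours are given with and without them.

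The CD3 genes varied widely among tumours and overlapped in range between host groups. Cd3e, the epsilon chain, had a lowest, median and highest value of 5.43, 6.68 and 7.99 in sham tumours, 6.18, 7.05 and 9.09 at 10 cGy, 5.90, 6.80 and 7.72 at 30 cGy, and 5.76, 6.84 and 8.31 at 80 cGy. The 2 highest tumours, 10 cGy replicate 2 at 9.09 and 80 cGy replicate 7 at 8.31, came from irradiated hosts, and the 2 lowest, sham replicates 2 and 14, from sham hosts. Group means were 6.65 ± 0.79 (SD, n = 18) in sham tumours, 7.25 ± 0.91 (n = 9) at 10 cGy, 6.85 ± 0.56 (n = 10) at 30 cGy and 6.91 ± 0.97 (n = 8) at 80 cGy. In 17 of the 27 tumours of irradiated hosts Cd3e exceeded the sham mean, which itself lay below the sham median. The same count was 15 for Cd3g and 7 for Cd3d.

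Cd3g, the gamma chain, ran through 4.93, 6.69 and 7.80 in sham tumours, 5.35, 6.55 and 8.99 at 10 cGy, 5.61, 6.56 and 7.27 at 30 cGy, and 5.50, 6.36 and 8.38 at 80 cGy. Its 2 highest tumours were the same as for Cd3e. Cd3d, the delta chain, spanned 3.74 to 5.16 over all tumours with group means between 4.32 ± 0.27 (SD, n = 10) at 30 cGy and 4.52 ± 0.41 (n = 18) in sham tumours, and was highest in sham replicate 6.

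**Figure D1:**
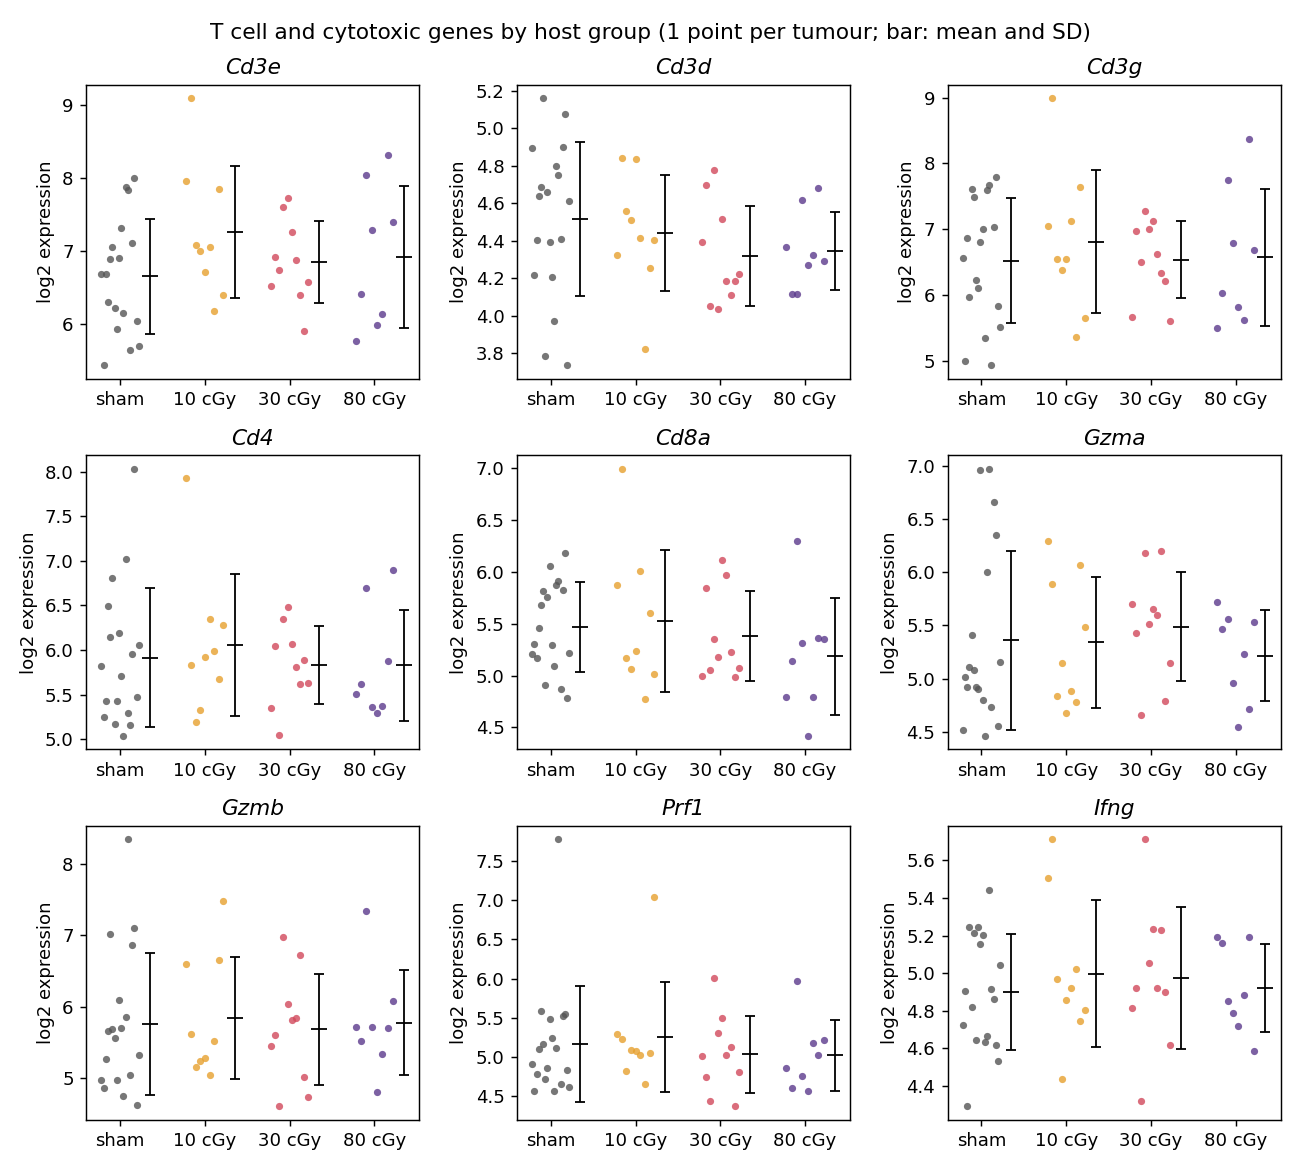
Log2 expression of the 9 measured genes (vertical axis) in each host group (horizontal axis), with 1 point per tumour and a bar for the group mean and SD. The 4 groups overlap for every gene, and single tumours such as sham 13 for Prf1 at 7.78 stand far above their group.

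The coreceptor genes also overlapped between groups. Cd4 (chr6:124864693-124888247) had a lowest, median and highest value of 5.04, 5.76 and 8.03 in sham tumours, 5.19, 5.92 and 7.92 at 10 cGy, 5.05, 5.85 and 6.48 at 30 cGy, and 5.29, 5.56 and 6.89 at 80 cGy. Sham replicate 16 and 10 cGy replicate 1, the tumours of high endothelial markers, held the 2 highest values, and the next, sham replicate 12, read 7.02. Cd8a (chr6:71373427-71379171) ran through 4.79, 5.38 and 6.18 in sham tumours, 4.77, 5.23 and 6.99 at 10 cGy, 4.99, 5.20 and 6.12 at 30 cGy, and 4.42, 5.23 and 6.30 at 80 cGy. At 80 cGy, 1 of 8 tumours, namely replicate 3, lay above the sham mean of 5.47, which itself exceeded the sham median.

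Among the granule genes, Gzma (chr13:113093824-113100981), the tryptase granzyme A, had a lowest, median and highest value of 4.46, 5.05 and 6.97 in sham tumours, 4.67, 5.15 and 6.29 at 10 cGy, 4.66, 5.56 and 6.20 at 30 cGy, and 4.55, 5.35 and 5.72 at 80 cGy. Gzmb, granzyme B, which activates caspases, ran through 4.63, 5.61 and 8.34 in sham tumours, 5.05, 5.53 and 7.47 at 10 cGy, 4.61, 5.72 and 6.97 at 30 cGy, and 4.81, 5.71 and 7.34 at 80 cGy. Prf1, perforin, ran through 4.56, 5.00 and 7.78 in sham tumours, 4.65, 5.08 and 7.05 at 10 cGy, 4.37, 5.02 and 6.01 at 30 cGy, and 4.56, 4.94 and 5.97 at 80 cGy. All 3 genes peaked in sham replicate 13, and the groups overlapped. Ifng (chr10:118441046-118445894) kept to a narrow band of 4.29 to 5.71 over all tumours, with the highest values in 30 cGy replicate 4 and 10 cGy replicate 2.

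None of the 6 genes tested passed the test for a difference between host groups. limma's moderated test with Benjamini-Hochberg adjustment over 12123 genes called 0 of 6 in the comparison of all Si hosts with sham, beside 0% of all genes. At an unadjusted p under 0.05 the count was again 0 of 6, where 5.82% of all genes passed. Both counts were also 0 of 6 for 10 cGy (3.65% of all genes at the unadjusted threshold), 30 cGy (4.45%), 80 cGy (6.97%), any difference among the 4 groups (4.13%) and the slope on dose (7.43%), with 0% of all genes called after adjustment in each. In Si hosts the difference was above 0 for 3 of the 6 genes, beside 53.2% of all genes, with a median of -0.0023 log2 beside 0.011 for all genes. At 10 cGy it was above 0 for 5 of the 6 (51.8% of all genes), at 30 cGy for 3 (49.2%), at 80 cGy for 3 (56.6%) and in the slope on dose for 1 (56.3%). The 3 dose comparisons share the sham tumours.

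Cd3e had the largest positive difference of the 6 genes. It was 0.35 ± 0.24 log2 (SE) in Si hosts over sham, with a 95% interval of -0.13 to 0.84 (limma adjusted p = 0.906). At 10 cGy it was 0.60 ± 0.32, with an interval of -0.04 to 1.25 and 7 of 9 tumours above the sham mean (limma adjusted p = 0.99). Without 10 cGy replicate 2 it was 0.37. With the mean of the B cell list as a covariate it was 0.13 at 10 cGy and 0.17 in all Si hosts. That list had a mean of 0.295 ± 0.542 (SD) at 10 cGy and -0.0844 ± 0.307 in sham tumours, as the log2 deviation from each gene's mean. The pan-leukocyte list, also run as a covariate, went the other way, at -0.106 ± 0.37 at 10 cGy and 0.0337 ± 0.957 in sham tumours. Whether B cells account for the Cd3e difference was not tested.

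The other members lay closer to 0 in Si hosts. Cd3g differed by 0.12 ± 0.28 (SE), Cd4 by -0.012 ± 0.21, Cd8a by -0.10 ± 0.15, Gzma by -0.014 ± 0.20 and Gzmb by 0.0078 ± 0.26. The lowest of their limma adjusted p was 0.962, for Cd8a. The intervals leave room for sizeable shifts, that of Gzmb running from -0.52 to 0.53. In the fit without the filter Cd3d differed by -0.15 ± 0.10, Prf1 by -0.068 ± 0.19 and Ifng by 0.066 ± 0.10 (limma adjusted p at least 0.969). Cd8a at 80 cGy differed from sham by -0.28 ± 0.22 (interval -0.72 to 0.15, limma adjusted p = 0.837), with -0.17 when 80 cGy replicate 5 was left out and -0.44 when 80 cGy replicate 3 was. The signs for Cd3g, Cd4, Gzma and Gzmb turned under some settings.

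**Figure D2:**
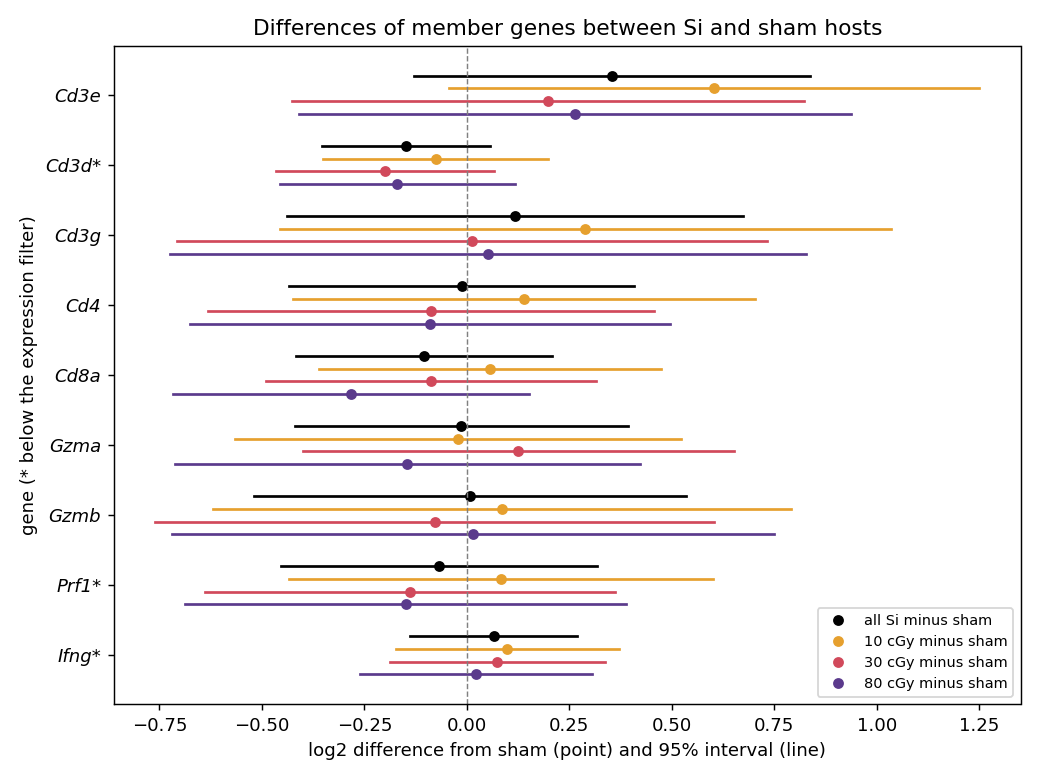
Log2 difference from sham tumours (horizontal axis) for each gene (vertical axis), as points with 95% intervals from limma for all Si hosts (black) and each dose (colours). Every interval includes 0, and that of Cd3e at 10 cGy, from -0.04 to 1.25, reaches farthest to the right.

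No gene of the wider lymphocyte lists passed the test either, beside 0% of all genes in every comparison. None of the 8 tested genes of T cell receptor signalling, 13 of the cytotoxic granule, 4 of NK cells, 30 of the interferon-gamma pathway or 11 of T cell chemokines and their receptors was called in any comparison with sham (limma, adjusted over all genes). In Si hosts, 6 of the 8 receptor signalling genes, 10 of the 13 granule genes, 2 of the 4 NK genes, 21 of the 30 interferon-gamma genes and 7 of the 11 chemokine genes had a difference above 0, beside 53.2% of all genes. At 10 cGy the counts, in the same order, were 7, 8, 4, 24 and 6, beside 51.8% of all genes. At 30 cGy they were 3, 7, 1, 13 and 4, beside 49.2%, and at 80 cGy 7, 9, 2, 19 and 8, beside 56.6%. Runx3, a transcription factor of CD8 T cells, had the lowest p of the 2 tested CD8 lineage genes, at 0.46 ± 0.20 log2 (SE) in Si hosts (limma unadjusted p = 0.0281, adjusted p = 0.819). Its group means were 8.45 in sham tumours, 9.10 at 10 cGy, 8.53 at 30 cGy and 9.13 at 80 cGy. Cd8b1, the other of the 2, differed from sham by 0.24 ± 0.21 at 10 cGy, 0.041 ± 0.21 at 30 cGy and -0.053 ± 0.22 at 80 cGy. Ido1, a tryptophan-degrading enzyme induced by interferon-gamma, differed by 1.72 ± 0.47 at 30 cGy (limma unadjusted p = 0.000677, adjusted p = 0.682), with means of 4.45 in sham tumours and 6.17 at 30 cGy.

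Over all 45 tumours the members varied together. All 36 pairs of members had a Pearson r above 0, with a median of 0.432, and 29 had an adjusted permutation p under 0.05 (Benjamini-Hochberg over 36 pairs). The count was 22 among the 18 sham tumours, 7 among the 27 tumours of Si hosts, where the lowest r was -0.0325, and 17 after the mean of the pan-leukocyte list was regressed out. Points share arrays and whole-tumour composition, and the genes were listed for belonging to related cells. A pair of blocks stood out by size, one of CD3 with Cd8a and one of the granule genes.

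Cd3e and Cd3g were the most closely linked pair, with r = 0.914 and rho = 0.905 (permutation adjusted p = 7.2e-05, from the smallest p that 100000 permutations can give). The value was 0.888 without the 2 tumours farthest from the median of Cd3e, 0.927 among sham tumours and 0.924 among tumours of Si hosts. Each was the other's closest match among 12125 genes. Cd8a followed them, with r = 0.752 (rho = 0.777) for Cd3g and 0.695 (rho = 0.694) for Cd3e, each at the same adjusted p, and 0.74 and 0.641 without the 2 farthest tumours of the CD3 gene. Cd3d was less tightly tied, at r = 0.489 with Cd3g (permutation adjusted p = 0.0017, rho = 0.471) and 0.38 with Cd3e (adjusted p = 0.014, rho = 0.362), and its values lay below the table median in all tumours.

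Gzmb and Prf1 formed the core of the other block, with r = 0.848 and rho = 0.807 (permutation adjusted p = 7.2e-05) and r = 0.808 without the 2 tumours farthest in Gzmb. Gzma correlated with Gzmb at r = 0.765 (rho = 0.789, adjusted p = 7.2e-05, r = 0.757 without the 2 farthest in Gzma) and with Prf1 at r = 0.612 (rho = 0.664, permutation adjusted p = 0.00018, r = 0.518). Between blocks the relation was looser. Cd3e and Gzmb had r = 0.518 (rho = 0.602, permutation adjusted p = 0.00103, r = 0.567 without the 2 farthest in Cd3e), with 0.745 among sham tumours and 0.361 among tumours of Si hosts. The difference between those 2 values was not tested.

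Over all 45 tumours Ifng was the least tied member, its 8 correlations lying between 0.215 and 0.405. Among tumours of Si hosts they lay between 0.247 and 0.548, and those of Cd3d between -0.0325 and 0.461. Cd4 correlated with Cd3e at r = 0.493 (rho = 0.484, permutation adjusted p = 0.00166, r = 0.538 without the 2 farthest in Cd3e). Without sham replicate 16 and 10 cGy replicate 1, the highest for Cd4, it was 0.412. With Prf1 its r was 0.289 (permutation adjusted p = 0.0618) and its rho 0.593 (adjusted p = 0.000131), r being 0.297 without the 2 farthest tumours in Cd4 and 0.579 without the 2 farthest in Prf1.

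**Figure D3:**
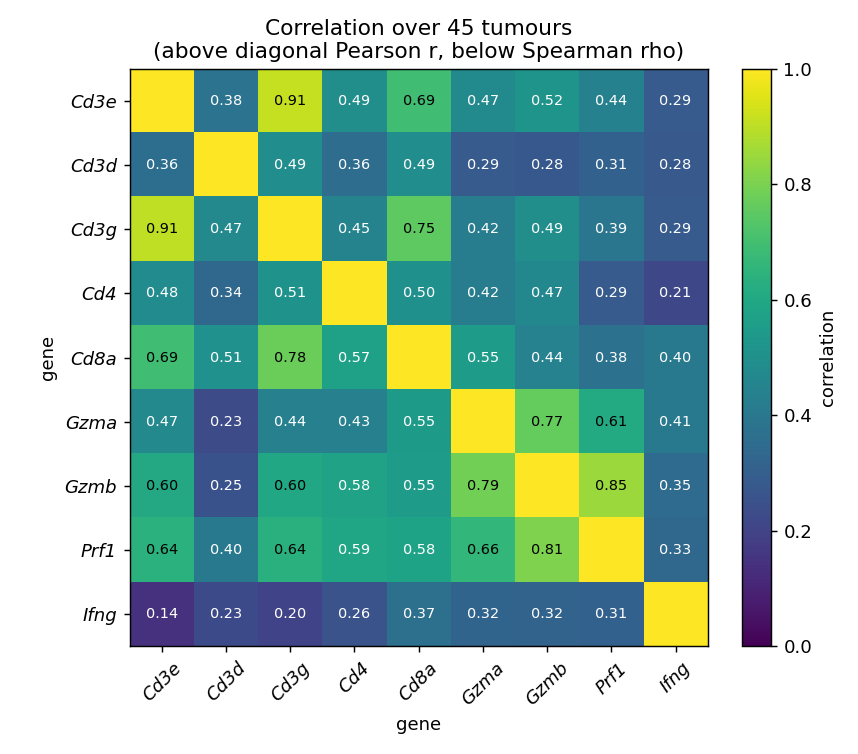
Correlation of each pair of the 9 genes over 45 tumours, Pearson r above the diagonal and Spearman rho below, coloured from 0 to 1. Cd3e with Cd3g (0.91) and Gzmb with Prf1 (0.85) are the brightest squares above the diagonal, and the column of Ifng stays between 0.21 and 0.41.

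The 10 genes outside the list most like the mean of the CD3 genes had r from 0.735 to 0.847. Gimap3, a GTPase of lymphocytes, had r = 0.847 over 45 tumours, Nkg7, a granule protein of killer cells, 0.839, Cd8b1, the other CD8 chain, 0.833, and Il2rb, a receptor chain for interleukins 2 and 15, 0.819. Next came Cst7, an inhibitor of granule proteases, at 0.78, Lat, the adaptor that relays the receptor's signal, at 0.774, Icos, a costimulatory receptor, at 0.747, Ms4a4b at 0.741, Zc3h12d at 0.736 and Tlr9, a receptor for microbial DNA, at 0.735. The median over 12117 genes compared was 0.0188, and 16 genes reached 0.7.

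Among genes outside the list, some partners were shared between members, Nkg7 being among the 3 closest for Cd8a and all 3 granule genes and Il2rb the closest for each granule gene. Cd8a was most like Cd8b1 (r = 0.878), Nkg7 (0.782) and Gzmk, another granzyme (0.775). Gzmb was most like Il2rb (0.811), Ms4a4b (0.775) and Nkg7 (0.746), Gzma like Il2rb (0.683), Nkg7 (0.68) and Ms4a4b (0.664), and Prf1 like Il2rb (0.719), Gzmc (0.653) and Nkg7 (0.641). For Gzmc, a further granzyme, the rank correlation with Prf1 was 0.315. Ifng reached at most 0.503, with Daxx, followed by Samhd1 (0.494) and Creld1 (0.482).

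Cd4 had a different set of partners, and the size of their r depended on 2 tumours. Septin1 and Il27ra, a receptor subunit for interleukin 27, each reached r = 0.729 and Cyria 0.708, but without sham replicate 16 and 10 cGy replicate 1 the values were 0.437, 0.415 and 0.518. Over all tumours rho was 0.514, 0.513 and 0.575. Cd4 correlated with the mean of 7 endothelial genes at r = 0.473 (permutation adjusted p = 0.00533 over 92 relations), while rho was 0.041 and r without the 2 farthest tumours -0.0486. With the mean of 15 genes of CD4 helper and regulatory cells its r was -0.0105 (rho = 0.252, permutation adjusted p = 0.947, r = 0.174 without the 2 farthest). With T cell receptor signalling genes its r was 0.615 (rho = 0.547, permutation adjusted p = 0.000123, r = 0.544).

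**Figure D4:**
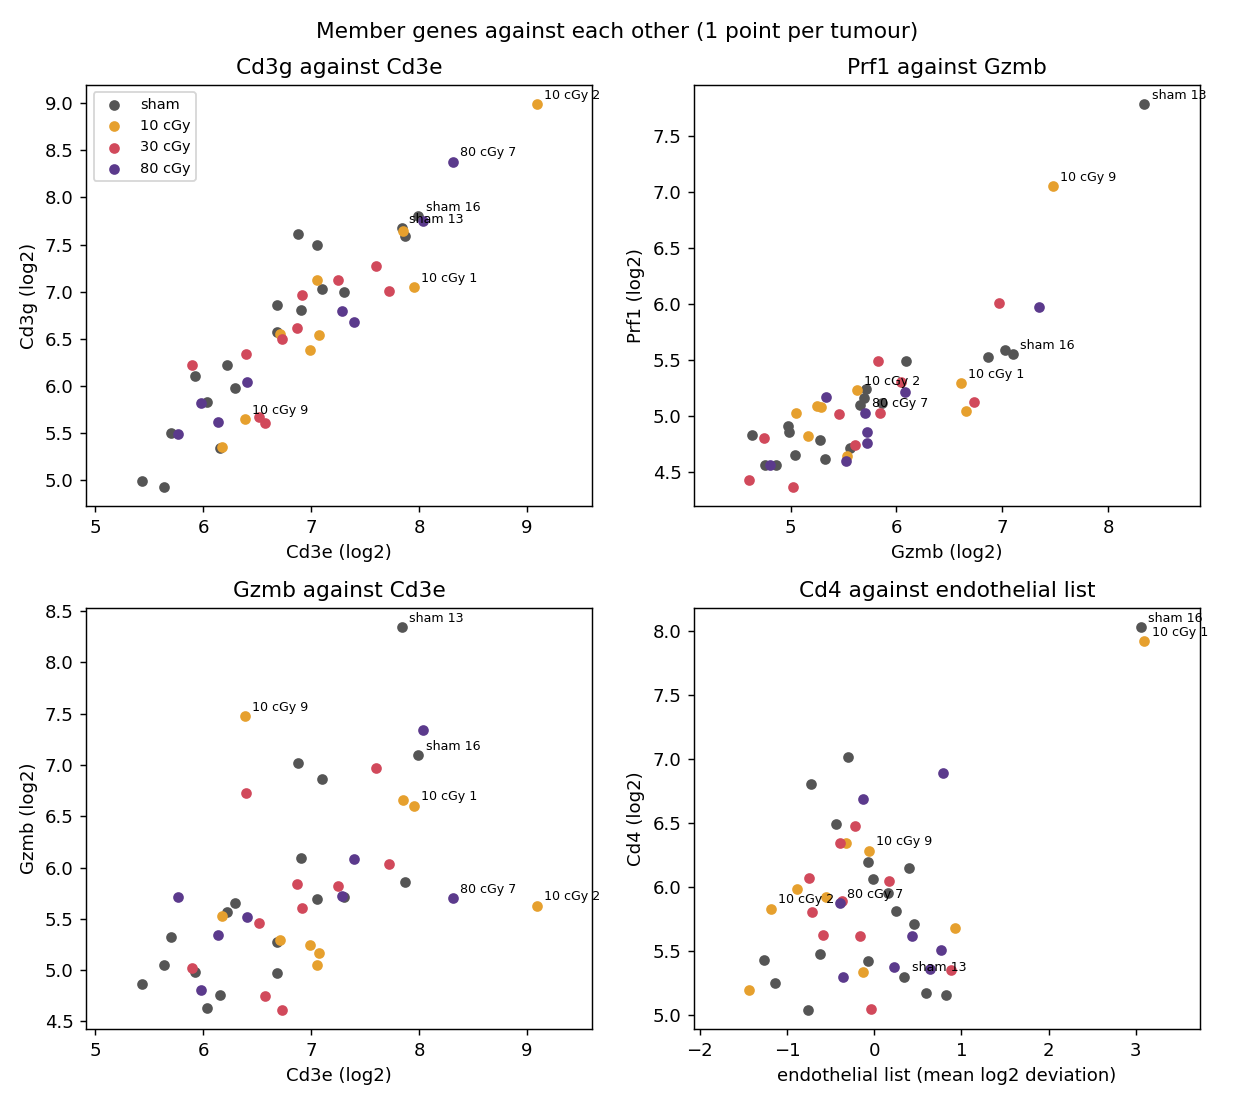
Pairs of measures with 1 point per tumour, coloured by host group: Cd3g against Cd3e, Prf1 against Gzmb, Gzmb against Cd3e (all log2) and Cd4 against the mean log2 deviation of 7 endothelial genes. Cd3g follows Cd3e along a line, sham 13 and 10 cGy 9 lead in Gzmb and Prf1, and 2 tumours near 3 on the endothelial axis hold the highest Cd4.

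Lists of other genes were set against Cd3e, Cd4, Cd8a and Gzmb, 92 relations in all. Cd3e followed T cell receptor signalling (r = 0.805, rho = 0.819, 0.797 without the 2 farthest tumours), the CD8 lineage (0.805, rho = 0.769, 0.739), T cell chemokines and receptors (0.721, rho = 0.71, 0.671) and gamma-delta T cell genes (0.672, rho = 0.613, 0.626), each with permutation adjusted p = 7.67e-05. Of 14 listed gamma-delta genes, 5 were measured, with no gamma or delta receptor gene among them, and 2 passed the filter. Those 2, Maf and Sox13, had r of 0.393 and -0.0428 with the mean of the CD3 genes. For Cd3e, r was 0.571 with the interferon-gamma pathway (rho = 0.5, permutation adjusted p = 0.000291, 0.467) and 0.6 with B cell genes (rho = 0.667, permutation adjusted p = 0.000123, 0.696). Cxcl9, the gene of that chemokine, led both the interferon-gamma and chemokine lists, at r = 0.704 with the mean of the CD3 genes.

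Gzmb followed NK cell genes (r = 0.79, rho = 0.791, 0.726 without the 2 farthest) and other granule genes (0.755, rho = 0.747, 0.727), both at permutation adjusted p = 7.67e-05. At the same adjusted p it followed the CD8 lineage (0.688, rho = 0.8, 0.774) and T cell receptor signalling (0.678, rho = 0.759, 0.634). It ran against epithelial genes, at r = -0.677 (rho = -0.615, permutation adjusted p = 7.67e-05, -0.657), and with macrophage genes at 0.544 (rho = 0.557, permutation adjusted p = 0.000256, 0.49). For Cd3e and epithelial genes r was -0.39 (rho = -0.327, permutation adjusted p = 0.0153, -0.283). Of 13 measured NK genes, 4 passed the filter. Another, Cma1, stands on the mast cell list too, so the NK score is not specific to NK cells. With the mast cell list Gzmb had r = 0.413 (rho = 0.487, permutation adjusted p = 0.0119, 0.387). Il2rb, which T cells carry too, lay above the table median in 38 tumours and Klrd1, a lectin-like receptor, in 8. Ncr1 ran between 3.04 and 5.30 and Klrb1c between 2.78 and 3.68, both below the table median in every tumour. The share of T cells and NK cells in the granule signal was not tested.

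**Figure D5:**
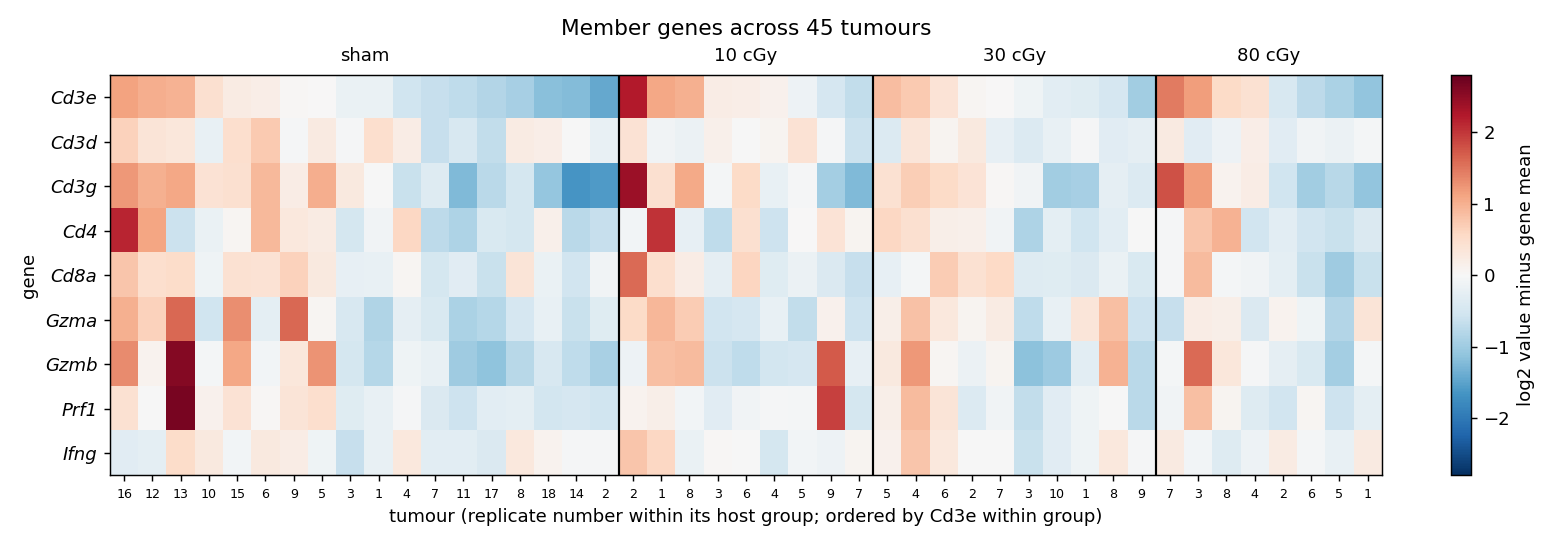
Log2 value minus the gene's mean over 45 tumours (colour, red above and blue below the mean) for 9 genes (rows) in each tumour (columns, numbered within host group and ordered by Cd3e). Red columns occur in every group, and the darkest cells are Gzmb and Prf1 in sham 13.

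Single tumours showed how the members can part company; they and the genes named for them were picked after their values were seen. Replicate 2 at 10 cGy had the highest Cd3e, Cd3g and Cd8a (6.99) of all tumours and the highest Cd8b1 (7.22) and Nkg7 (8.19). It ranked 23 of 45 for Gzmb and 22 for Cd4, but 10 for Gzma, 13 for Prf1 and 2 for Ifng. On the granule list it ranked 7 (0.359). Its score was the highest of all tumours on the CD8 lineage (1.04), interferon-gamma (0.774) and T cell chemokine (0.836) lists. Replicate 7 at 80 cGy, second for Cd3e and Cd3g, ranked 21 for Cd4, 18 for Cd8a, 20 for Gzmb, 23 for Prf1 and 39 for Gzma. On the granule list it ranked 12 (0.155). That tumour led the gamma-delta list (0.671), with the highest Cd163l1 (5.75), a scavenger receptor of gamma-delta T cells, and Blk (6.17), a kinase of gamma-delta T cells and B cells. The other measured genes of that list ranked 2 (Il23r, 5.37), 16 (Sox13, 7.63) and 33 (Maf, 8.45, against a median of 9.06). It also led the lymph node list (1.70), with the highest Cr2 (9.04), a complement receptor of B cells and follicular dendritic cells. These traits were partly shared. Replicate 2 at 10 cGy ranked 2 on the gamma-delta list (0.615), 2 for Cr2 (7.125) and 3 for Blk (5.819). It had the highest Il23r (5.774) but ranked 7 for Cd163l1 and 9 on the lymph node list.

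The 4 tumours highest for Prf1 shared some traits and differed in others. Sham replicate 13 had Prf1 at 7.78, Gzmb at 8.34 and Gzma at 6.97. It had the highest NK score (0.637), with a mast cell score of 1.04, rank 4 of 45. It also had the highest Ncr1 (5.30), an activating receptor of NK cells, beside an epithelial score of -2.97, rank 42 of 45. In 10 cGy replicate 9, Prf1 (7.05) and Gzmb (7.47) were second while Cd3e ranked 32, Cd3g 37 and Cd8a 36, and Gzmc (8.04) was the highest of all tumours. Next for Prf1 were 30 cGy replicate 4 (6.01) and 80 cGy replicate 3 (5.97). Over the genes tested, each of these 2 had a correlation of 0.968 with sham replicate 13, against a median of 0.857 between tumours. Ncr1 ranked 1 in sham replicate 13, 2 in 10 cGy replicate 9, 4 in 30 cGy replicate 4 and 5 in 80 cGy replicate 3. Gzmc ranked 2, 1, 5 and 8 in the same order. Cd3e ranked 8 in sham replicate 13, 10 in 30 cGy replicate 4 and 3 in 80 cGy replicate 3, and Cd8a ranked 8, 19 and 2, so that 10 cGy replicate 9 alone of the 4 was low in both. Epcam, an epithelial adhesion molecule with a median of 10.97, read 6.04 in sham replicate 13, 6.16 in 30 cGy replicate 4 and 5.96 in 80 cGy replicate 3, but 9.61 in 10 cGy replicate 9.

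Some tumours share a number and letter in their sample codes, whose meaning the labels do not give. There were 8 such pairs, all within a host group. Sham replicates 13 and 14 share a code, yet Prf1 read 7.78 and 4.65 in them, Gzmb 8.34 and 5.05, and Cd3g 7.68 and 4.93. Replicates 6 and 7 at 80 cGy likewise read 5.62 and 8.38 for Cd3g. The median difference within these 8 pairs was 1.23 for Cd3g and 0.995 for Gzmb, against 0.903 and 0.835 for 254 other pairs of the same group, and for Cd4 it was 0.455 against 0.624. No test was run on these medians. Over the genes tested, tumours sharing a code had a consensus correlation of 0.228, from the dose slope fit with codes as a random block. The main fits and permutations do not take the codes into account. With 1 tumour per shared code, 26 of the 36 pairs of members were called, against 29 over all 45 tumours.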

How the data were processed

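RNA of 45 tumours was measured on single-colour Affymetrix arrays, and groups were read from the sample titles. The deposited log2 values came from RMA in the oligo package, per the submitters' processing notes, with versions not given in the sources used here. They ran from 1.34 to 14.06, with array medians of 5.48 to 5.80, and the number of arrays limits the precision. The platform annotation paired 21218 of the 35556 probe sets with 1 gene, 1881 with several and 12457 with none, giving 18820 genes. A gene was kept where its value exceeded the table median in at least 8 tumours, leaving 12123.

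The means of the 4 groups were fitted with limma 3.58.1 in R 4.3.3, without covariates, and p was adjusted by Benjamini-Hochberg over all genes kept, two-sided, with a threshold of 0.05. The fit was also run on simulated data in which genes and tumours varied independently. Genes are correlated in these tumours, so that run cannot show how the fit behaves here. The Si contrast is the unweighted mean of 3 doses minus sham. Correlations were tested by 100000 two-sided permutations, over 36 pairs since Foxp3 was not measured, in Python 3.11.15. List scores are the mean log2 deviation of a list's genes other than members. The members, the 23 lists and the tests were chosen with earlier results of these data known. Genes named are the members, the 10 genes most like the CD3 mean, the 3 most like each other member, and from each list those most like the CD3 mean or of lowest p; others are said to be picked after seeing values. Labels do not say that tumours came from separate hosts, so p-values measure the spread between tumours. Same-numbered replicates did not pair (median r of their deviations -0.071 over 52 pairs).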

Additional observations from a re-analysis of the deposited data

Results flagged for a closer look

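A check for tumours far from the rest of their group covered 9 genes in the 3 dose groups, 27 sets in all, and chance flags about 1 in 20 sets. It picked out 3 values. Cd4 in 10 cGy replicate 1 was 7.92, with the next tumour of the group at 6.35. Prf1 in 10 cGy replicate 9 was 7.05, with the next at 5.29. Prf1 in 80 cGy replicate 3 was 5.97, with the next at 5.21. The sham group was not covered by the check, so the flags cannot be compared with it. There, Prf1 read 7.78 in replicate 13, with the next tumour, replicate 5, at 5.59.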

How the results depend on the processing

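The count of members called was 0 in every comparison under each of the 58 to 61 alternatives run for it, with a lowest member adjusted p of 0.283 (slope on dose). Counts over all genes, 0 in the fits reported, rose with array weights to 30 for 80 cGy, 35 for the slope on dose and 2 for any difference, and with the replicate block to 6 for Si hosts and 1 for 80 cGy; replicate numbers do not pair these tumours, and no member was called under that block. Leaving out 1 tumour gave at most 1 gene. Differences between Si and sham hosts near 0 changed sign. Cd3g became -0.10 with the B cell list as covariate. Cd4 became 0.055 with the replicate block, 0.0585 against sham tumours of code 5 and 0.034 without the 2 tumours of highest endothelial list. Gzma became 0.010 with a random block for shared codes, 0.175 with the replicate block, 0.0041 with the pan-leukocyte list as covariate, 0.19 against sham tumours of code 5, 0.0045 without the 2 endothelial-high tumours and 0.081 without sham replicate 13. Gzmb became -0.065 with array weights, -0.065 with the B cell list, -0.071 with the CD3 mean as covariates and -0.22 against sham tumours of code 6. Leaving out 1 tumour moved Cd3g between 0.025 and 0.19, Cd8a between -0.17 and -0.063, Cd4 between -0.090 and 0.11, Gzma between -0.066 and 0.081 and Gzmb between -0.067 and 0.16. Of the 36 pairs, 29 were called over all 45 tumours. The count was 22 among the 18 sham tumours alone and 7 among the 27 tumours of Si hosts alone. It was 17 after regressing out the pan-leukocyte list. In Si hosts alone r of Cd3d and Cd4 was -0.0325. The cause of these shifts was not tested. The settings that leave out sham replicate 16 with 10 cGy replicate 1, or sham replicate 13, were chosen after seeing the data. Low signal limits Cd3d, Ifng and Prf1, which exceeded the table median in 0, 2 and 4 tumours.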
